A study of Mus musculus with 8 samples.

Results

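The clustered protocadherins are cell surface cadherins encoded in tandem arrays on mouse chromosome 18, and their RNA was followed in embryonic stem cells (ESC) and after their differentiation by retinoic acid (RA-DIFF), with and without huntingtin. Members were taken by name and biotype, as the protein-coding genes with an alpha, beta or gamma array name, which gave 55 of the 32567 genes in the RNA-seq table. The alpha array holds 13 of them (GRCm38 chromosome 18, 36930184 to 37187661), the beta array 22 (37264938 to 37524479) and the gamma array 20 (37661793 to 37841873), all transcribed from the plus strand. The RNA came from 4 libraries, 1 for each condition. These are wild-type ESC, ESC of the huntingtin-null Hdhex4/5/ex4/5 genotype (a homozygous targeted allele of Htt, here Htt-null), and, for each genotype, cells differentiated by way of embryoid bodies. ESC had been kept without feeder cells for 4 passages, and RA-DIFF cells had spent 8 days as embryoid bodies with 5 µM retinoic acid from day 4 to day 8 and were collected 2 hours after plating. The labels do not say that a genotype is more than 1 line, so a difference between genotypes cannot be told apart from a difference between lines, and with 1 library per condition there is no replicate check and no p-value. Intervals given below are 95% intervals that cover counting error only.

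Clustered protocadherins pair with identical partners on neighbouring cells, and the combination that a neuron makes serves it as a surface label by which its own branches recognise and avoid each other. In the alpha and gamma arrays each member has a variable exon with a promoter of its own, which is spliced to constant exons shared by the whole array, whereas beta members are encoded in single exons and have no constant part. The alternate members are chosen promoter by promoter in each neuron, through DNA methylation and looping by CTCF and cohesin, while the C-type members (Pcdhac1, Pcdhac2, Pcdhgc3, Pcdhgc4 and Pcdhgc5) lie at the ends of the alpha and gamma arrays and are used more uniformly.

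This gene structure sets what a count means here. A read pair in an exon shared by several genes was ambiguous for the counting step and was not counted, so the counts of alpha and gamma members stand for their variable exons. Of the exon bases of a member, a median of 53.6% in the alpha and 45.2% in the gamma array lay under another annotated gene, and of a beta member 0%. Levels of different members were therefore compared as TMM-scaled CPM (counts relative to library size) per kb of unshared exon, which could be computed for 54 members. Pcdhga10 has no unshared base when both strands are considered, since its variable exon lies under an antisense gene, and 2613 on its own strand alone. Its counts were 0, 5, 12 and 17 (in the order wild-type ESC, Htt-null ESC, RA-DIFF labelled wild type, RA-DIFF labelled Htt-null, kept throughout). Whether counting took strand into account is not named, so these counts are not read as a measure of its RNA. In all, 12 members overlap an antisense gene. One name was corrected from the gene identifier and position: the entry named Pcdhga8 in the table (ENSMUSG00000023036, 37815079 to 37841873) is Pcdhgc4, and is called so here. The alternate member Pcdhga8 itself was not analysed here.

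Total counts were 87924678, 63617410, 110569127 and 100927951. Htt, the targeted gene, had 166 and 111 CPM in the ESC libraries, so that it was lower in Htt-null cells, but 73.3 and 98.7 CPM in the RA-DIFF libraries, and were thus higher under the Htt-null label. The RA-DIFF labels were therefore kept but are doubtful. The per-condition levels in the study's own supplementary table follow the opposite assignment of the RA-DIFF columns to genotype, and with exchanged labels every RA-DIFF genotype ratio below changes sign, and each genotype's RA-DIFF to ESC ratios take the other RA-DIFF library, so that differences between the lines in those ratios also rest on the labels as given. Markers went with the stage labels: the summed level of 10 pluripotency genes was 4148 and 4023 CPM in ESC and 56.3 and 16.1 CPM in RA-DIFF, and that of 10 neural progenitor genes 776, 693, 4692 and 5932 CPM. In bulk RNA, fewer cells of a type and less RNA per cell cannot be told apart.

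In ESC the gamma array supplied nearly all clustered protocadherin RNA. Its members summed to 2794 counts (32.2 CPM) in wild-type and 2367 counts (36.3 CPM) in Htt-null ESC, which was 96.3% (95.6 to 97.0) and 95.1% (94.2 to 95.9) of the counts on all members. More than 3 counts were found for 19 and 20 of its 20 members. The beta array gave 88 and 101 counts over its 22 members (1.01 and 1.55 CPM), and the alpha array 18 and 20 counts over its 13 (0.208 and 0.307 CPM). Of the alpha members 11 and 8 had no count, and of the beta members 10 and 11, where the upper limit of 3 counts for a count of 0 stands for 0.0346 CPM in wild-type and 0.0460 CPM in Htt-null ESC.

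Per kb, Pcdhgc3, a C-type member known for promoting dendrite branching in cortical neurons, was the highest of the 54 in wild-type ESC, at 2.86 CPM per kb, and had 2.10 in Htt-null ESC. Pcdhga1, the first alternate member of the gamma array, had 1.84 and 2.64 CPM per kb, so that the order of the 2 differed between the libraries. That order rests on the length used: where antisense overlaps were kept as exon, Pcdhgc3 had 1.54 and 1.13 CPM per kb and Pcdhga1 had 1.61 and 2.31, higher in both. The other gamma C-type members were far lower, with 20 and 18 counts for Pcdhgc4, which is needed for the survival of interneurons, and 90 and 68 for Pcdhgc5. Outside the gamma array, single members stood above their neighbours. Pcdhac2, a C-type member required for the spacing of serotonergic axons, gave 17 and 16 of the alpha counts, and Pcdhb22, the last of the beta array, gave 39 and 57 of the beta counts. Next in the beta array came Pcdhb3 in wild-type ESC (18 counts, 0 in Htt-null ESC) and Pcdhb14 in Htt-null ESC (21 counts, 11 in wild-type ESC).

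**Figure D1:**
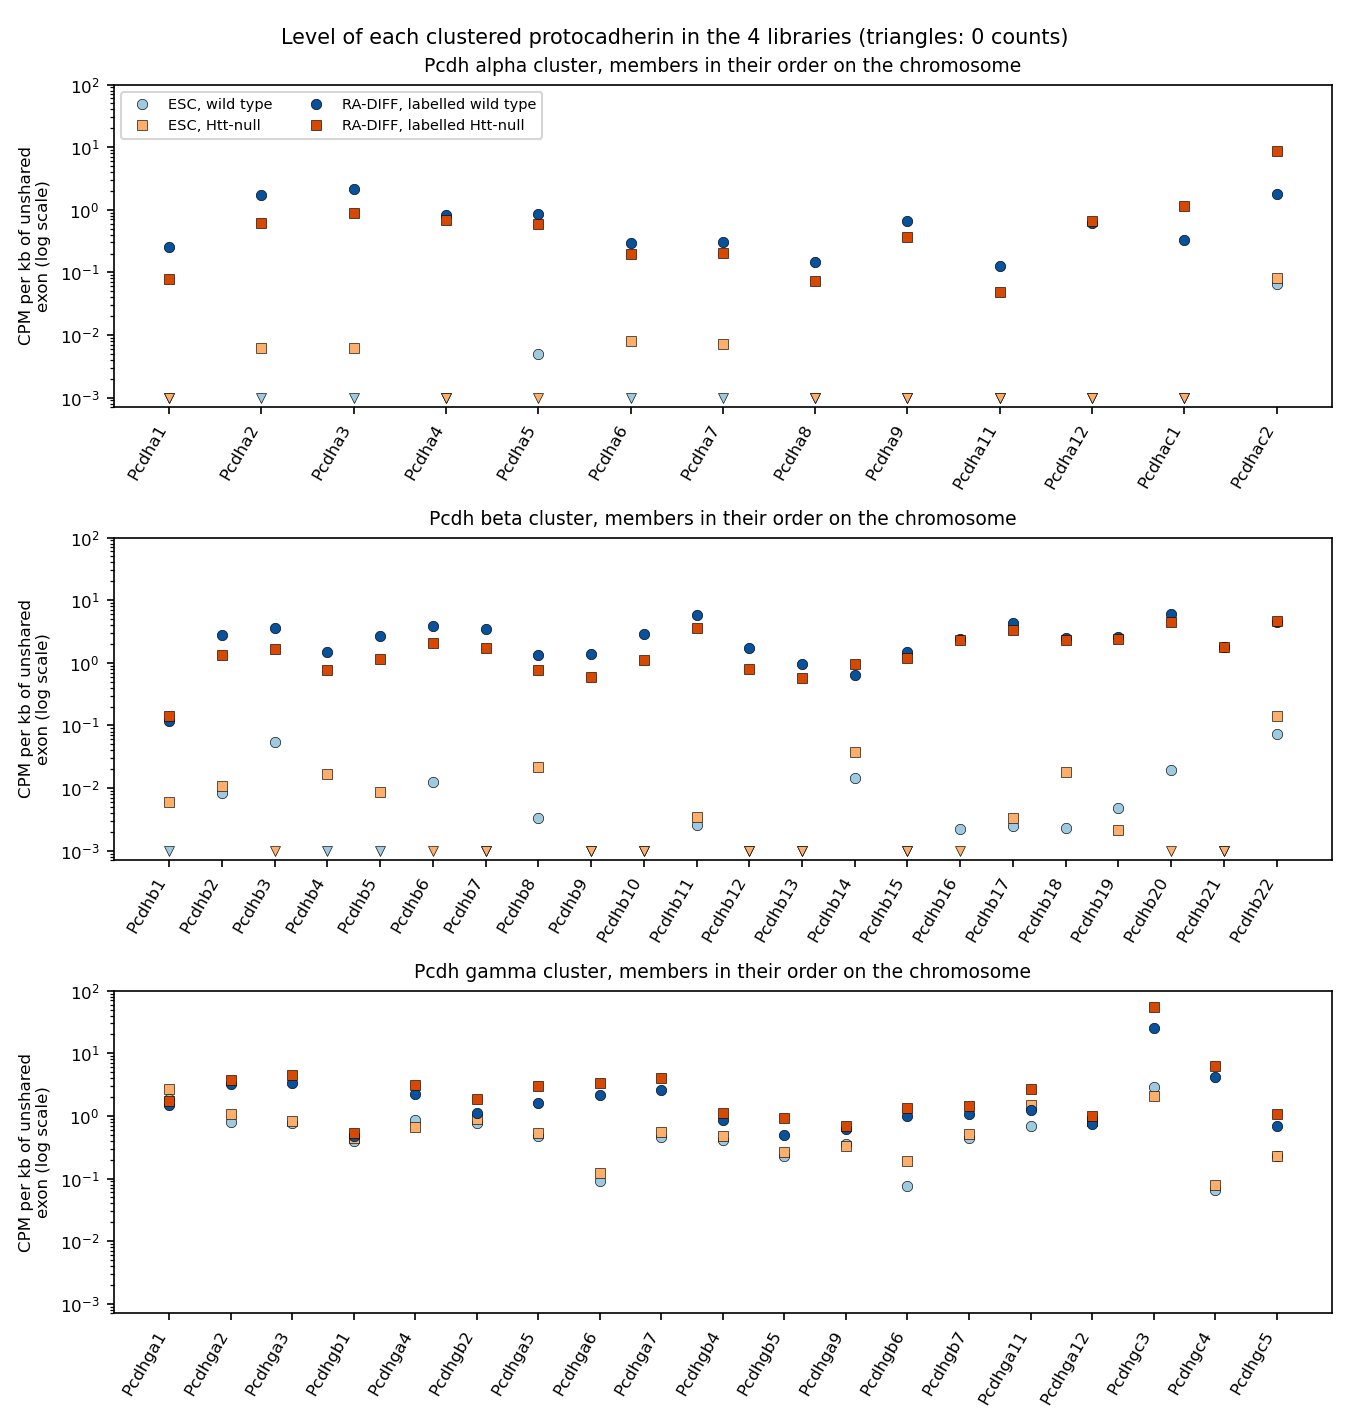
Level of each member in the 4 libraries, as CPM per kb of unshared exon on a log axis, with members in their order on the chromosome and 1 panel per array (Pcdhga10, without unshared exon, is left out). Circles are libraries labelled wild type, squares those labelled Htt-null, pale colours ESC and dark colours RA-DIFF, and triangles at the lower edge mark 0 counts. Alpha and beta members lie near or at 0 in ESC and between 0.0481 and 8.71 CPM per kb in RA-DIFF, whereas gamma members start from 0.0663 to 2.86 CPM per kb in ESC.

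With RA differentiation the alpha and beta arrays came up from near 0. All 55 members had more than 3 counts in both RA-DIFF libraries. The alpha sum went from 0.208 to 23.5 CPM in the libraries labelled wild type and from 0.307 to 38.1 CPM in those labelled Htt-null, log2 ratios of 6.82 (6.16 to 7.58) and 6.96 (6.33 to 7.67). The beta sum went from 1.01 to 242 CPM and from 1.55 to 178 CPM (log2 ratios 7.90, 7.60 to 8.22, and 6.85, 6.57 to 7.15). The gamma sum, which started higher, went from 32.2 to 125 CPM and from 36.3 to 217 CPM, for smaller log2 ratios of 1.96 (1.90 to 2.02) and 2.58 (2.52 to 2.64). Beta then made up 62.0% (61.5 to 62.4) of all member counts in the library labelled wild type and 41.2% (40.7 to 41.6) in the one labelled Htt-null, and gamma 32.0% (31.6 to 32.5) and 50.0% (49.6 to 50.5). These are shares of counts, which also depend on the exon length counted for each member, and not of levels per kb. Per kb, the median beta member had 2.54 and 1.51 CPM in these libraries, and the median gamma member 1.24 and 1.87.

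**Figure D2:**
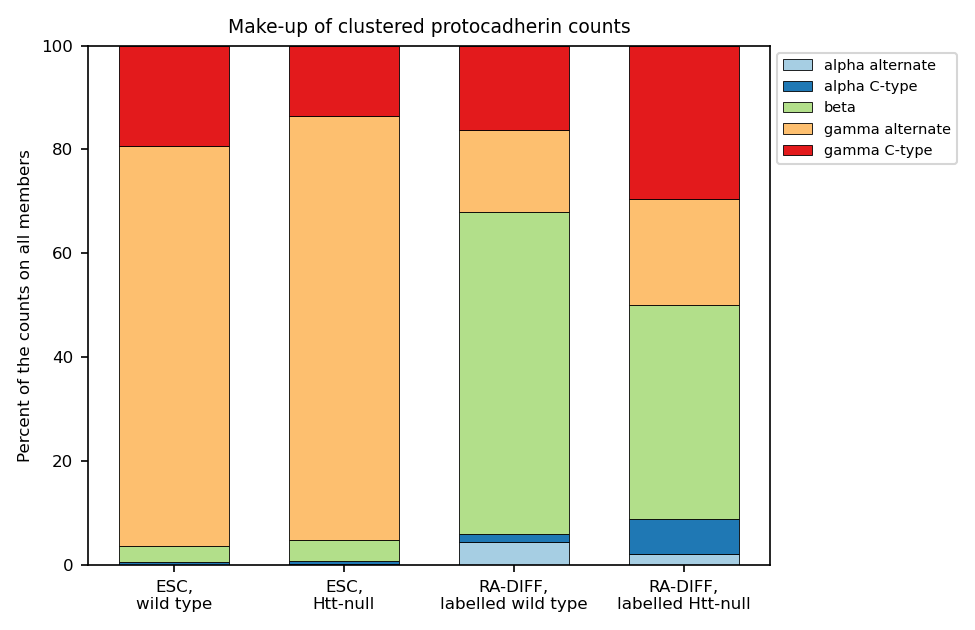
Make-up of the counts on all 55 members in each of the 4 libraries, as the percent of counts on alpha alternate, alpha C-type, beta, gamma alternate and gamma C-type members. Gamma members fill 96.3% and 95.1% of the ESC bars and 32.0% and 50.0% of the RA-DIFF bars, and beta members 62.0% and 41.2% of the RA-DIFF bars. Counts are not scaled by exon length.

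Taken singly, a member was called when its log2 ratio (prior count 2) passed 0.75 and its mean log2 CPM over the 4 libraries was above 0, a limit that 42 of the 55 members met (3 alpha, 20 beta, 19 gamma), and 13 did not (10 alpha, 2 beta, 1 gamma). The limit itself favours genes high in at least 1 stage. In the libraries labelled wild type 37 of the 42 were higher in RA-DIFF than in ESC and 0 lower, against 33.9% higher and 26.1% lower of the 15492 genes tested. In the libraries labelled Htt-null 39 were higher and 0 lower, against 34.3% and 24.8%. The median log2 ratio of the tested members was 5.86 and 5.08, beside 0.12 and 0.17 for all genes tested. Every tested alpha and beta member was called higher in both lines, and 14 and 16 of the 19 gamma members. In ESC no alpha member exceeded 0.245 CPM and no beta member 0.874 CPM. The tested ones therefore passed the expression limit only through RA-DIFF, which set their direction beforehand. The counts and medians over the 42 members share this and are descriptions only. Counting intervals bear on the members outside the limit too: over all 55, the interval of the RA-DIFF to ESC ratio lay above 0 for 52 members by the wild-type libraries and 51 by the Htt-null ones, and below 0 for 2 and 1.

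Of the alpha alternate members, Pcdha2 had 0, 1, 489 and 149 counts, and Pcdha3 had 0, 1, 595 and 217. Both had at most 1 count in ESC and were the highest alternates of the array per kb in RA-DIFF under the wild-type label. Against the limit of 3 counts in wild-type ESC, RA-DIFF cells labelled wild type had 126-fold more Pcdha2 and 153-fold more Pcdha3. The counting intervals of these log2 ratios began at 6.68 and 6.96, somewhat below those folds. The other 9 alpha alternates gave between 18 and 228 counts under the wild-type label in RA-DIFF and between 6 and 136 under the Htt-null label, from 0 or 1 count in ESC.

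Among beta members, Pcdhb11 had 1, 1, 2893 and 1552 counts, the largest log2 ratio of the libraries labelled wild type (9.59, counting interval 8.65 to 16.4), with 8.72 (7.53 to 15.3) in those labelled Htt-null. Pcdhb17 followed it with 1, 1, 2243 and 1518 counts (9.22 and 8.69). Pcdhb20 had 6, 0, 2408 and 1556 counts, and its ratio in the Htt-null libraries was the largest of any member there at 9.49. That value is set by its 0 counts in ESC. Against 3 counts there it was 344-fold higher, and the counting interval of the log2 ratio began at 8.12. Pcdhb16 had 1, 0, 1428 and 1183 counts and in the Htt-null libraries was 261-fold higher against 3 counts in ESC (interval from 7.73). Pcdhb22, with the most ESC counts of the array, had 39, 57, 3146 and 2871 and a smaller ratio than these (5.90 and 5.03). Per kb of unshared exon, Pcdhb20 (6.04 and 4.44 CPM per kb), Pcdhb11 (5.84 and 3.57) and Pcdhb22 (4.56 and 4.74) were the highest of the array in RA-DIFF, and Pcdhb1, the first in the array, was the lowest at 0.117 and 0.141. The 22 beta members thus spanned a wide range of levels within 1 library.

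The gamma members ranged from levels near those in ESC to levels well above them. Pcdhga1 had 453, 490, 478 and 478 counts, or 5.22, 7.51, 4.27 and 4.85 CPM, so that its scaled level was lower in RA-DIFF, with log2 ratios of -0.29 and -0.63 and intervals below 0 in both lines (-0.48 to -0.10 and -0.81 to -0.45). Pcdhga12, the last alternate of the array, had 318, 223, 344 and 406 counts and log2 ratios of -0.25 and 0.27, which lie on opposite sides of 0. Neither was called. Pcdhga6 had 21, 21, 626 and 848 counts, the largest ratios of the gamma alternates at 4.41 and 4.65, and Pcdhga3 had 171, 140, 964 and 1165 (2.11 and 2.45). Pcdhgb2 (0.55 and 1.05) and Pcdhga9 (0.74 and 1.06) passed the limit between the Htt-null libraries and not between the wild-type ones, a difference that was not tested and that holds only with the RA-DIFF labels as given.

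The gamma C-type members were all higher in RA-DIFF. Pcdhgc3 had 452, 250, 5119 and 9933 counts (log2 ratios 3.13 and 4.71) and was the highest member per kb in both RA-DIFF libraries, at 25.1 and 55.4 CPM per kb (13.5 and 29.8 with antisense overlaps kept as exon). Pcdhgc4 had 20, 18, 1606 and 2172 counts, and its ratios of 5.83 and 6.21 were the largest of the array. Pcdhgc5 had 90, 68, 358 and 489 counts (1.60 and 2.23). Together they held 20.1% (18.7 to 21.6) and 14.2% (12.8 to 15.7) of the gamma counts in ESC and 50.5% (49.7 to 51.3) and 59.0% (58.3 to 59.6) in RA-DIFF. Pcdhga1 went the other way within the array, from 16.2% and 20.7% of gamma counts in ESC to 3.41% and 2.24%. Of the alpha C-type members, Pcdhac2 had 17, 16, 607 and 2597 counts (4.64 and 6.63), and Pcdhac1, which was too low to be tested, had 0, 0, 93 and 284.

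**Figure D3:**
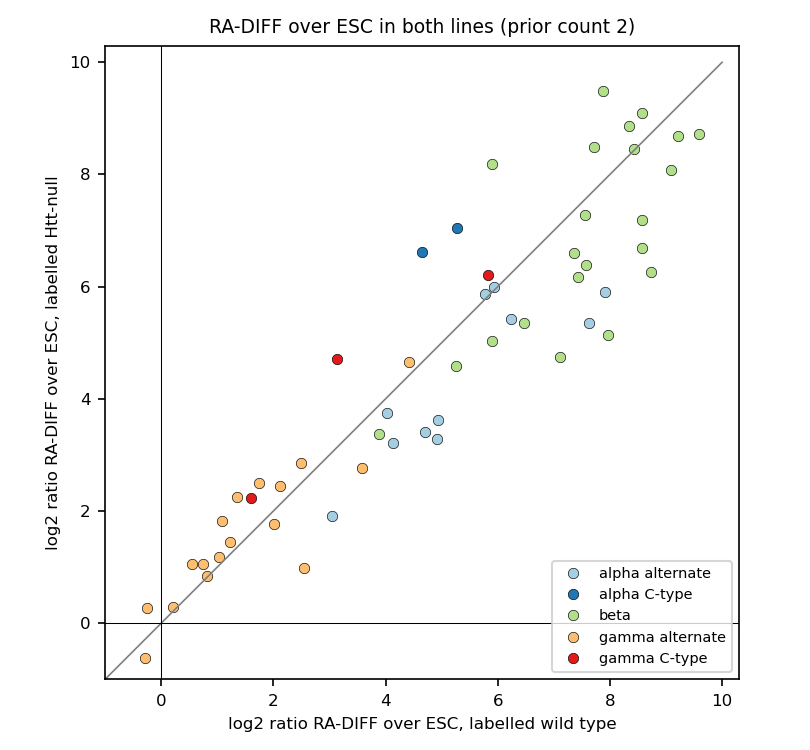
Log2 ratio of RA-DIFF over ESC for each of the 55 members (prior count 2), in the libraries labelled wild type on the horizontal axis and in those labelled Htt-null on the vertical axis, coloured by array and type, with the line of equal ratios. Beta members reach 9.59 and 9.49, gamma alternates lie between -0.63 and 4.65, and with the RA-DIFF labels as given, the alpha C-type members lie above the line, Pcdhac2 at 4.64 and 6.63.

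Comparison of Htt-null with wild-type ESC asks what loss of huntingtin goes with in undifferentiated cells. The gamma sum was slightly higher in Htt-null ESC, with a log2 ratio of 0.17 (0.09 to 0.25). The beta sum had a ratio of 0.61 (0.18 to 1.04) from 88 and 101 counts, and the alpha sum one of 0.56 (-0.43 to 1.57) from 18 and 20, so that no alpha difference was detectable at this depth. Of the 42 members tested, 10 were past the limit on the higher side and 3 on the lower, against 5.14% and 3.47% of all genes tested, but most of these rest on a handful of counts. In 7 of the 10 and in all 3 the higher library had more than 3 counts, and the counting interval lay off 0 in 4 and 1. Those 4 were Pcdhb14 (11 and 21 counts, log2 ratio 1.21), Pcdhb22 (39 and 57, 0.93), Pcdhgb6 (17 and 32, 1.23) and Pcdhga11 (76 and 123, 1.09). The 1 on the lower side was Pcdhb3, with 18 counts in wild-type and 0 in Htt-null ESC.

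Of the remaining ESC differences, Pcdhb4 (0 and 4 counts), Pcdhb8 (1 and 5) and Pcdhb18 (1 and 6) were past the limit on the higher side, and Pcdhb20 (6 and 0) and Pcdhb6 (4 and 0) on the lower, with intervals that include 0. The other 3 members past the limit had no more than 3 counts in either library, and no ratio is given for them. Pcdhgc3, with 452 and 250 counts, had 5.21 and 3.83 CPM, a log2 ratio of -0.44 (-0.67 to -0.22) that did not reach the limit. Pcdhga4 was next on that side among gamma members, with 118 and 67 counts (-0.40, -0.86 to 0.04). Pcdhga1 and Pcdhga2 had intervals above 0, with ratios of 0.52 and 0.44. When an exact test with an assumed dispersion of 0.1 was added to the limit, 0 members remained higher and 1 lower.

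In RA-DIFF the arrays differed from one another between the genotype labels. The library labelled Htt-null had more gamma RNA than the one labelled wild type (217 and 125 CPM, log2 ratio 0.79, 0.76 to 0.82), less beta RNA (178 and 242 CPM, -0.44, -0.47 to -0.41) and more alpha RNA in sum (38.1 and 23.5 CPM, 0.70, 0.62 to 0.77). The total over all members differed little, at 433 and 391 CPM (0.15, 0.13 to 0.17). Of the 42 members tested, 5 were called higher under the Htt-null label and 12 lower, against 11.7% and 8.99% of all genes. By array, 1 alpha member was called higher and 2 lower of 3, 0 beta members higher and 10 lower of 20, and 4 gamma members higher and 0 lower of 19. With the assumed dispersion of 0.1 these calls came down to 1 higher and 2 lower, and leaving out Pcdhac2 turned the alpha sum to -0.63. These ratios use the same RA-DIFF libraries as the comparison with ESC and are not independent of it.

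The alpha array split by type. Both C-type members were higher under the Htt-null label. Pcdhac2 had 607 counts in the library labelled wild type and 2597 in the one labelled Htt-null (5.42 and 26.4 CPM), a log2 ratio of 2.28 (2.16 to 2.41) that was the largest of any member. Pcdhac1 had 93 and 284 counts, with a ratio of 1.77 (1.45 to 2.15). Of the 11 alternates 10 were lower, and summed to 1933 and 868 counts together with the exception, Pcdha12 (133 and 125 counts, 0.10, -0.27 to 0.46), for a ratio of -0.97 (-1.09 to -0.85). Pcdha2 had a ratio of -1.51 (-1.80 to -1.26) and Pcdha3 one of -1.26 (-1.50 to -1.04). The C-type members accordingly held 26.6% (24.9 to 28.3) of alpha counts in the library labelled wild type and 76.8% (75.5 to 78.2) in the one labelled Htt-null. Since all alpha transcripts share their constant exons, which were not counted, the total of alpha mRNA was not measured as such.

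In the beta array 18 of 22 members were lower under the Htt-null label, and 16 of these had counting intervals below 0. The lowest ratio was that of Pcdhb10, with 935 and 313 counts (-1.39, -1.58 to -1.21), followed by Pcdhb5 with 1056 and 395 (-1.23, -1.40 to -1.06). Position in the array went with the ratio. The 12 members from Pcdhb2 to Pcdhb13 lay between -1.39 and -0.71 with a median of -1.02, and 10 of them were called lower, all but Pcdhb11 (-0.71) and Pcdhb12, which was too low to be tested. The 9 members from Pcdhb14 to Pcdhb22 lay between -0.44 and 0.53 with a median of -0.08, and 0 were called. Pcdhb1, which lies before them, had 34 and 36 counts (0.25, -0.45 to 0.99). This boundary was drawn after the values were seen, and no test was made of it. Pcdhb14, the first past the boundary, had the highest ratio of the array (634 and 808 counts, 0.53, 0.38 to 0.69), and Pcdhb22 differed by less than its counting error (3146 and 2871 counts, 0.05, -0.02 to 0.13).

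Over the 22 beta members, the rank correlation between order in the array and ratio was 0.56, as a description of neighbours that share libraries and base composition. The ratio also went with the unshared exon length (0.56) and the GC content of that exon (-0.58). It went as well with the share of its 50-base windows found again in a transcript of any other gene (-0.55). The part of these properties in the ratio was not tested. Order had a correlation of 0.51 with the ratio over the 11 alpha alternates, where that of unshared length was -0.70. There GC content (-0.18) and repeated windows (-0.05) were weaker. Over the 17 gamma alternates order had a correlation of 0.30. Over 16 of these, length had -0.34, GC content -0.09 and repeated windows -0.24.

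The gamma array differed in 1 direction. Leaving aside Pcdhga10, all 16 alternates and all 3 C-type members were higher under the Htt-null label, 17 of these 19 with counting intervals above 0. Pcdhgc3 had 5119 and 9933 counts (1.14, 1.09 to 1.19), Pcdhga11 had 174 and 333 (1.11, 0.85 to 1.40), Pcdhgb5 had 252 and 428 (0.94, 0.72 to 1.18) and Pcdhga5 had 458 and 766 (0.93, 0.76 to 1.10), which were the 4 called. Pcdhgc4 (0.62, 0.53 to 0.72) and Pcdhgc5 (0.63, 0.44 to 0.84) stayed under the limit, so that within the C-type group the difference of Pcdhgc3 was the larger. The C-type sum had a ratio of 1.02 (0.97 to 1.06) and the alternate sum one of 0.52 (0.48 to 0.57). At the other end, Pcdhga1 (478 counts in each library, 0.19), Pcdhgb1 (138 in each, 0.18) and Pcdhga9 (237 and 238, 0.19) had equal or nearly equal counts in libraries of unequal size. Pcdhga11 was higher under the Htt-null label at both stages, which holds only with the RA-DIFF labels as given.

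**Figure D4:**
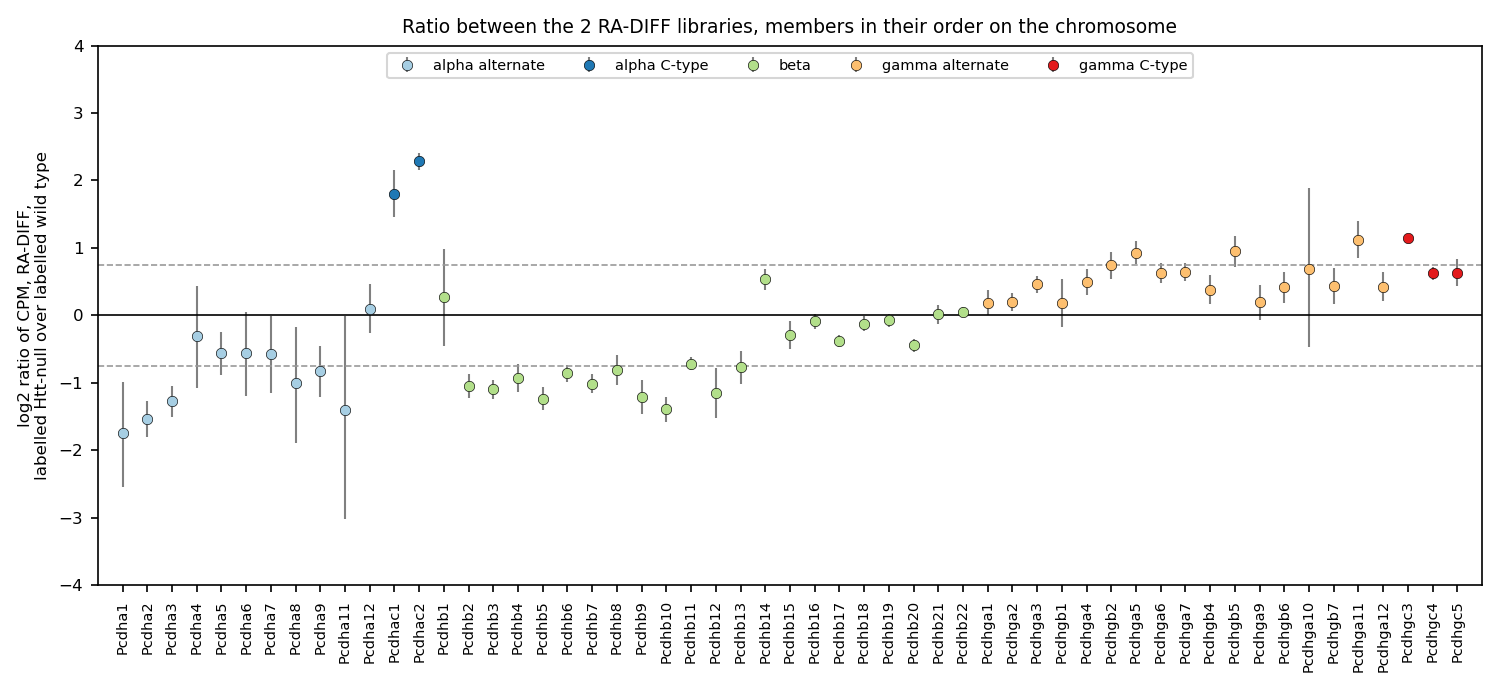
Log2 ratio of CPM between the RA-DIFF libraries, labelled Htt-null over labelled wild type and without a prior count, for the 55 members in their order on the chromosome, coloured by array and type. Bars are 95% intervals of counting error and dashed lines mark the limit of 0.75. The alpha alternates and Pcdhb2 to Pcdhb13 lie mostly below 0, Pcdhb14 to Pcdhb22 near 0, and the C-type and gamma members above it, with Pcdhac2 highest at 2.28.

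The RA-DIFF libraries also differed in the markers of the cell types they can hold, to be read against 11.7% of all genes tested called higher under the Htt-null label and 8.99% called lower. Of 12 neuron markers 10 were lower and 0 higher under the Htt-null label (median log2 ratio -1.37), with summed levels of 3102 CPM labelled wild type and 1397 CPM labelled Htt-null. Of 15 mesenchyme and fibroblast markers 14 were higher and 0 lower (median 1.64, 877 and 3228 CPM). Of 10 neural progenitor markers 1 was higher and 3 lower (median 0.04), of 7 astrocyte markers tested 3 and 2, of 7 oligodendrocyte markers 3 and 1, and of 4 endoderm markers 1 and 0. Of 10 pluripotency markers 9 were lower (median -2.67, 56.3 and 16.1 CPM). No marker was at 0 in either RA-DIFF library. Neuron and pluripotency markers were thus lower under the Htt-null label, as were most alpha alternates and Pcdhb2 to Pcdhb13. Mesenchyme markers were higher, as were the C-type and gamma members. Pcdhb14 to Pcdhb22 (median -0.08) went with neither side, nor did the other marker lists as a whole. The part of the cell mixture in the protocadherin ratios was not tested.

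The nonclustered protocadherins, single genes outside the arrays that act in cell sorting and adhesion, gave a background from the same superfamily. The 10 of the 12 that passed the expression limit were higher in RA-DIFF in both lines, beside 33.9% and 34.3% of all genes tested, with median log2 ratios of 8.20 and 6.40. Several passed it through RA-DIFF alone, such as Pcdh20 with 0 counts in both ESC libraries and Pcdh11x with 0 and 1. Between the RA-DIFF libraries 2 were higher in the one labelled Htt-null, Pcdh7 (3736 and 7248 counts, 1.14) and Pcdh11x (1126 and 2398, 1.28), and 4 were lower, Pcdh8 (13738 and 2768, -2.12), Pcdh9 (3638 and 964, -1.73), Pcdh20 (657 and 197, -1.54) and Pcdh17 (4437 and 1626, -1.26). Differences in both directions were therefore also found outside the arrays. In ESC 3 were past the limit on the higher and 2 on the lower side, all on 29 counts or fewer and Pcdh11x on 0 and 1. The shares of all genes tested were 11.7% and 8.99% in RA-DIFF and 5.14% and 3.47% in ESC.

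Of 21 genes known to act on clustered protocadherin promoters, 3 were higher and 4 lower with RA differentiation in the libraries labelled wild type (33.9% and 26.1% of all genes tested), and 1 and 3 in those labelled Htt-null (34.3% and 24.8%). Dnmt3b, the de novo DNA methyltransferase that methylates these promoters in the embryo, was lower in both (-2.98 and -2.96), as were Rest, a repressor of neuronal genes (-1.61 and -0.76), and Trim28, a corepressor of KRAB zinc finger proteins (-0.93 and -1.19). Between genotype labels 0 of the 21 passed the limit in ESC, beside 5.14% higher and 3.47% lower of all genes, and 0 in RA-DIFF, beside 11.7% and 8.99%, where Ctcf, whose product joins promoters to their enhancers, had 26250 and 21464 counts (-0.10) and Rest had 7211 and 9615 (0.60).

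Of 20 genes for intracellular partners of the clustered protocadherins and the proteases that cleave them, 9 were higher and 1 lower with RA differentiation in the libraries labelled wild type, beside the same 33.9% and 26.1% of all genes, and 11 and 2 in those labelled Htt-null, beside 34.3% and 24.8%. Marcks, an actin-binding substrate of protein kinase C that acts downstream of the gamma proteins in dendrites, had log2 ratios of 3.48 and 4.21. Ptk2b, the Pyk2 kinase that the cytoplasmic tails of alpha and gamma proteins inhibit, was lower in both (-4.22 and -2.43). Between the RA-DIFF libraries Ptk2b (111 and 386 counts, 1.96) and Prkca (2044 and 3886, 1.11), a protein kinase C, were higher in the one labelled Htt-null, and these 2 of 20 are near the 11.7% of all genes. In ESC 0 were higher, and 1 was lower, Marcks (9213 and 3937 counts, -0.82), beside 5.14% and 3.47%.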

How the data were processed

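The authors sequenced poly-A-plus RNA by a strand-specific dUTP method with 50 bp paired-end reads, aligned to GRCm38.p4 with TopHat2 2.0.14 guided by Gencode transcripts, counted genes with HTSeq 0.6.1 (intersection-nonempty) and deposited raw counts. Other options were at their defaults by the Methods, and the strand setting of the counting step is not named. The 4 small RNA libraries were not used here. Each column matched 1 sample's labels (0 unmatched). The members and lists were chosen with earlier results of these data known.

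CPM were scaled by TMM factors over the 4 libraries with edgeR 4.0.16 in R 4.3.3, and log2 ratios used a prior count of 2. With 1 library per condition the spread between replicates cannot be estimated, so a gene was called by size (log2 ratio past 0.75, mean log2 CPM above 0) and no p-value is given. Ratios of counts carry Clopper-Pearson and shares Wilson intervals at 95%. Against 0 counts, folds were computed from 3 counts and leave out the counting error of the other library. Ratios of sums have no prior count. Unshared exon bases were taken from a later Gencode release on the same build. The calling step was tested on simulated data with 200 changed genes, all with high expected counts. That test does not bear on members with few counts, such as the alpha and beta members in ESC. Python 3.11.15 was used for tables (pandas 2.3.3, numpy 2.4.6), intervals (scipy 1.17.1) and figures (matplotlib 3.10.9).

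Values are given for the C-type members, for the highest members per kb, for the largest rise and fall per array and comparison, and for genes called in the lists. Others were named after their values were seen: Pcdhb1, Pcdhb6, Pcdhb8, Pcdhb12, Pcdhga2, Pcdhga5, Pcdhga9, Pcdhga10, Pcdhgb1, Pcdhgb2, Pcdhgb5 and Pcdha12. Alternatives varied scaling, expression limit, fold limit, prior count, an exact test at assumed dispersions of 0.1 and 0.01, the member with the most counts and the RA-DIFF labels. A gene that the naming rule covers is not reported here.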

Additional observations from a re-analysis of the deposited data

Results flagged for a closer look

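Pcdhb4 and Pcdhb8, both beta members, lay on opposite sides of 0 between genotype labels at the 2 stages, with the RA-DIFF labels as given. With those labels exchanged both would lie on 1 side. Pcdhb4 had 0 and 4 counts in wild-type and Htt-null ESC, and in RA-DIFF 619 counts labelled wild type and 286 labelled Htt-null, a log2 ratio of -0.92. Pcdhb8 had 1 and 5 counts in ESC and 517 and 260 in RA-DIFF, a log2 ratio of -0.80. With 1 library per condition the difference between the stages was not tested, and the ESC intervals of both include 0.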

How the results depend on the processing

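Of the counts and sums recomputed under alternatives, 84 stayed within 1.5 times the count or within the counting interval of the sum, and the others are given here. Median-of-ratios scaling kept all 20 within that tolerance, with 6 higher and 11 lower in RA-DIFF. Library size alone moved the gamma sum of the Htt-null RA comparison to 2.51 and the RA-DIFF genotype ratios to -0.50 (beta) and 0.74 (gamma). Exchanging the RA-DIFF columns gave 12 higher and 5 lower in that comparison and sums of -0.70 (alpha), 0.44 (beta) and -0.79 (gamma), all of opposite sign, and with RA differentiation sums of 7.46 (beta) and 2.75 (gamma) for wild type and 6.26, 7.29 and 1.79 (alpha, beta, gamma) for Htt-null cells, with 1 member lower. The assumed dispersion of 0.1 left 0 members called higher in ESC (1 lower) and 1 in RA-DIFF (2 lower), while 0.01 left 4 and 1 in ESC. A prior count of 0.5 gave 5 lower in ESC, and a log2 limit of 1 gave 3 higher in RA-DIFF. Without the member with the most counts, sums became 10.6, 8.57 and 1.56 (alpha, beta, gamma) for RA in wild type, 7.79 (beta) and 1.84 (gamma) for RA in Htt-null, 2.41 (alpha) in ESC, and -0.63, -0.52 and 0.55 between the RA-DIFF libraries, where alpha changed sign. Without members that overlap an antisense or readthrough gene, an alternative chosen after seeing the data (as was the length that keeps antisense overlaps), gamma sums were 2.13 and 2.50 with RA, and between the RA-DIFF libraries alpha was 0.79 and gamma 0.55. Apart from what each alternative removes by construction, the cause was not tested. No paired test was run, and because each condition has 1 library no replicate could be left out. Depth limits the alpha and beta values in ESC, where sums rest on 18 to 101 counts.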

Other observations

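Pcdhgb8, a member of the gamma array annotated as a polymorphic pseudogene and so outside the rule, had 122 and 125 counts in wild-type and Htt-null ESC, and 602 and 800 counts in the RA-DIFF libraries labelled wild type and Htt-null.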
